A study of Homo sapiens with 4 samples.

Results

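Lysosomes are the acidic compartments in which cells break down proteins, glycans and lipids, and the genes described here encode their soluble hydrolases, their membrane proteins, the proton pump that acidifies them and 2 transcription factors that bind the promoters of many of these genes. The set was chosen as 27 listed lysosomal symbols plus every gene whose symbol starts with ATP6V0 or ATP6V1, the V-ATPase subunits, among genes with a probe set annotated to that gene alone. It came to 47 of the 19777 genes measured in this way: 26 of the listed symbols and 21 ATP6V0 or ATP6V1 symbols. GLB1, the remaining listed symbol, was not analysed here. The symbol rule also took in ATP6V0E2-AS1, an antisense RNA gene that encodes no subunit, and TFEB and TFE3 are nuclear regulators, so the set is wider than lysosomal proteins alone.

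The cells were HCT116, an established human colon cancer line, and both groups were first kept for 24 h in medium without serum. The hypoxia group was then held for 72 h at 1% oxygen and the normoxia group for 72 h at 21% oxygen, so all cells had been starved of serum and the comparison is one of oxygen within that state. Each group held 2 arrays, which the labels call exp A and exp B. Nothing says whether these letters mark separate cultures or a shared day, so the spread between these arrays may be technical. The p-values rest on that spread drawn toward that of genes with similar signal, not on a gene's own spread alone.

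Lysosomal enzymes are made in the endoplasmic reticulum, tagged with mannose 6-phosphate in the Golgi and carried by receptors to endosomes, where the V-ATPase lowers the pH at which they work. The pump has a membrane sector, V0, that conducts protons and a cytosolic sector, V1, that hydrolyses ATP. TFEB and TFE3, held in the cytoplasm by the growth regulator mTORC1 when nutrients are plentiful, bind a palindromic element of the CLEAR network (TCACGTGA at its core) near the start sites of many lysosomal genes.

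This core stands in the promoters of some of the genes whose differences are described below, and the following windows show where. Each runs from 250 bases before to 50 bases after the start site, from the RefSeq table of build GRCh38.p14, 5′ to 3′ on the gene's strand, with the core in capitals. LAMP1 and ATP6V1G1 are shown as the called members that hold it, MCOLN1 as a lysosomal channel gene that holds it and was not called, and NPC1 as the member with the largest difference, whose window holds none. LAMP1 (chr13:113296989-113297288, plus strand) has the core at 2 places.
LAMP1: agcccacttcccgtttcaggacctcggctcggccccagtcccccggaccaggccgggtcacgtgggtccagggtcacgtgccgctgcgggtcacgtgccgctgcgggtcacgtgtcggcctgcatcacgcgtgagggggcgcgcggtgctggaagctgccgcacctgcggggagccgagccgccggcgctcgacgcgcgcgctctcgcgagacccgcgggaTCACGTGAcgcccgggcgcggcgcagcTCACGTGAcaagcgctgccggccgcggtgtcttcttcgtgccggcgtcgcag
ATP6V1G1 (chr9:114587519-114587818, plus strand) has it at 1 place.
ATP6V1G1: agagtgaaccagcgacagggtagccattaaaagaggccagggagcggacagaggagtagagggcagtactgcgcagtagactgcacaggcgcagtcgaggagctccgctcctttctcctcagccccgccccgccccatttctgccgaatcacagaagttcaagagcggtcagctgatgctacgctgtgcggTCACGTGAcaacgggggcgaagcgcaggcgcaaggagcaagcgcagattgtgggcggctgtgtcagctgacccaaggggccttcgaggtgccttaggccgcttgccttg
MCOLN1 (chr19:7522374-7522673, plus strand) has it at 2 places.
MCOLN1: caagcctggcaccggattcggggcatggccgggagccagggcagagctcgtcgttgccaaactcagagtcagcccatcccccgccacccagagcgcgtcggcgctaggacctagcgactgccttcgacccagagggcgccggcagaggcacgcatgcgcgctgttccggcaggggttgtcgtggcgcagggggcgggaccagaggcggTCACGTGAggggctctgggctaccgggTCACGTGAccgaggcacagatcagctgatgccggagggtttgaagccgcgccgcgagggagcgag
NPC1 (chr18:23586457-23586756, minus strand) has no core.
NPC1: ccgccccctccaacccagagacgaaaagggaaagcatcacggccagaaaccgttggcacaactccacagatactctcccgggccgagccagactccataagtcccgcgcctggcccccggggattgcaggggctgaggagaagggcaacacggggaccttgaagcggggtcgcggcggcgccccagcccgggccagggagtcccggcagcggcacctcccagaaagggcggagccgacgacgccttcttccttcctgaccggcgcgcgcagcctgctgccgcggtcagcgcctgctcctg

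Expression is given as MAS5 signal, a linear intensity per probe set, with 1 probe set per gene, the one with the highest mean over the 4 arrays. Each difference is hypoxia minus normoxia in log2(signal + 23.7), a scale that shrinks the differences of dim genes, and is given ± SE from limma with a p-value adjusted over all 12636 genes tested. A gene was tested where its mean signal was at or above 97.4, and called where the adjusted p was under 0.05. Of the 47 members, 45 were tested. Levels of different genes are not compared, since probe sets bind with different strength.

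Of the 45 tested members, 7 were called higher in hypoxia, 13 were called lower and 25 were not called. Over all genes, 38.0% were called, 15.3% higher and 22.8% lower, so the 44.4% of members called lay near the background. The median difference of the members was -0.30, against -0.028 over all genes tested. It was -0.36 within letter A and -0.080 within letter B. The 4 arrays did not overlap between groups for 38 of 45 members (84.4%), against 72.0% of all genes, and 9 members were both called and at least 2-fold different, beside 25.9% of all genes. Among the members, the sterol transporter gene NPC1 stood highest with a 5.69-fold higher signal in hypoxia, and the V0 subunit gene ATP6V0E2 lowest with a 5.17-fold lower one on the scale above, although both its hypoxia arrays lay under the highest background control described below, so that fold is not exact. Directions are relative to the other genes on each array. Rescaled to the hybridization controls, the median of all genes moved to -1.49 and 5 of the 7 higher members (TFE3, CTSB, PSAP, NPC2 and LAMP2) had negative differences, while NPC1 and ATP6V1C2 stayed positive but were not called.

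**Figure D1:**
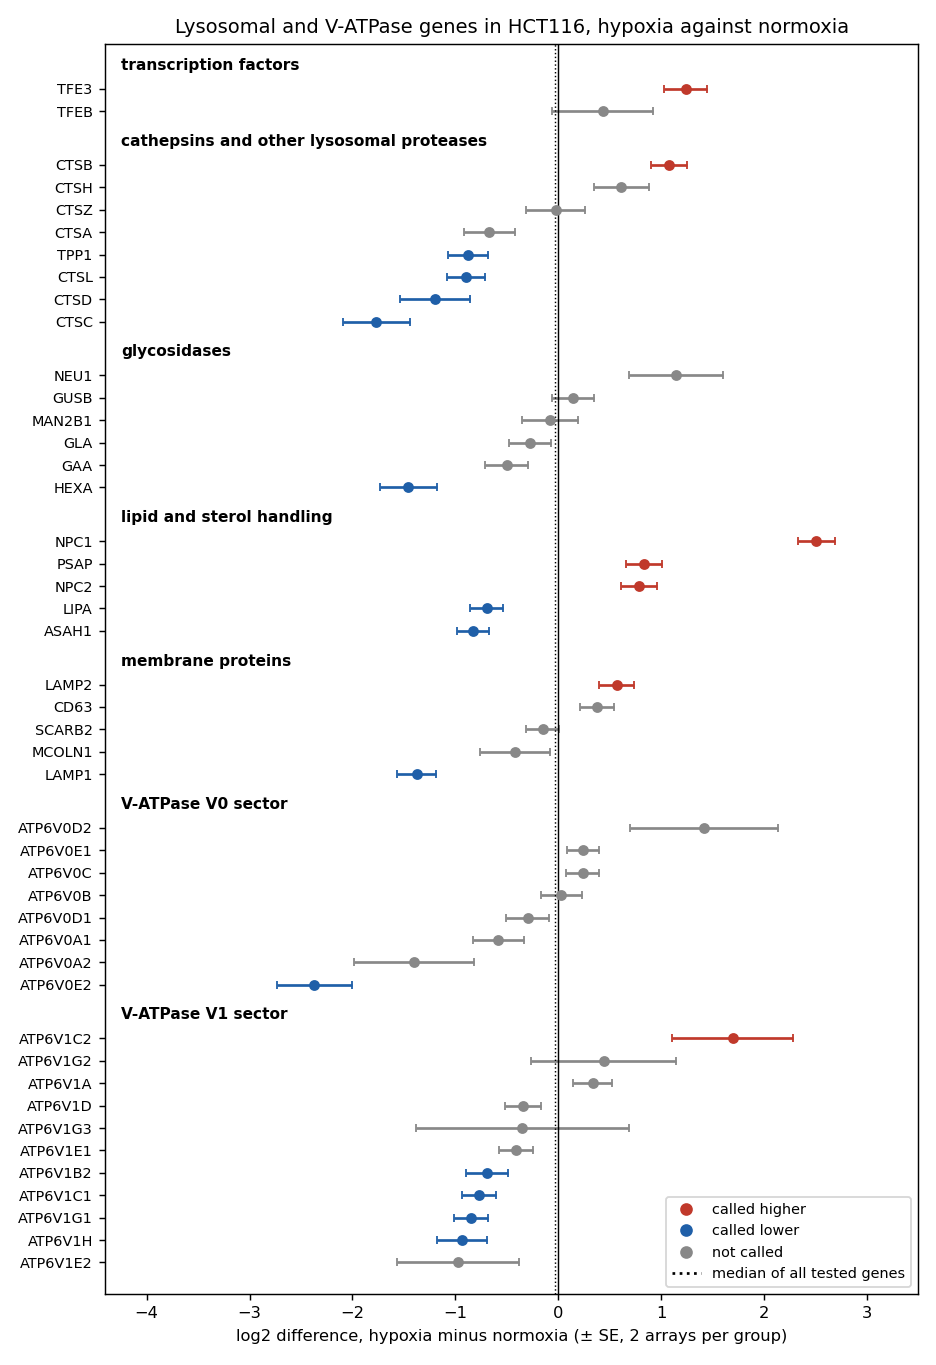
Log2 difference in signal between hypoxia and normoxia (x axis) for each of the 45 tested members (rows), grouped by role, with bars of ± SE from limma (2 arrays per group); red is called higher, blue called lower and grey not called, and the dotted line is the median of all tested genes. Calls in both directions stand in the protease, lipid, membrane and V1 groups, from 2.51 for NPC1 to -2.37 for ATP6V0E2, and the differences of TFE3, CTSB, PSAP, NPC2 and LAMP2 turn negative when arrays are rescaled to the hybridization controls.

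The hypoxic state was visible in known hypoxia genes. NDRG1, a stress-responsive gene induced at low oxygen, had a signal of 56249 and 47993 in hypoxia, against 3599 and 2803 in normoxia, and VEGFA, the angiogenic growth factor, had 19382 and 15177, against 4490.2 and 3542. The arrays also differed in ways not tied to the members. The hybridization controls, spiked in at a fixed amount, had a geometric mean of 9869 and 8594 on hypoxia arrays and 2444 and 4595 on normoxia arrays. The highest control of Bacillus sequence, used here as a mark of background, read 305 and 226 in hypoxia and 45.7 and 121 in normoxia, and the ratio of 3′ to 5′ signal of ACTB was 1.66 and 1.77 in hypoxia and 1.26 and 1.28 in normoxia. For GAPDH that ratio was 0.912 and 0.955 in hypoxia and 0.918 and 0.996 in normoxia. Their part in the members' differences was not tested. Of 10 epithelial markers, 6 lay above the highest Bacillus control on every array (summed signal 123124 and 111820 in hypoxia, 76012 and 90002 in normoxia), with KRT20, VIL1, CDX2 and LGALS4 outside those 6. None of 5 immune markers (summed signal 352 and 324 in hypoxia, 185 and 389 in normoxia) or 5 endothelial markers (537 and 489 in hypoxia, 119 and 357 in normoxia) did, and of 6 fibroblast markers (2446 and 2797 in hypoxia, 733 and 1182 in normoxia) only COL1A1 did. The RNA came from whole cultures, in which fewer cells with a transcript and less of it per cell cannot be told apart.

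The question put to the 2 transcription factors was whether their own transcripts differed with oxygen; their location in the cell, which governs their activity, was not measured. TFE3 had a signal of 1751 and 1899 in hypoxia, against 853 and 677 in normoxia. Both hypoxia arrays lay above both normoxia arrays, with a log2 difference of 1.24 ± 0.21 (adjusted p = 0.00208). A further probe set of TFE3 differed by 1.38 and the remaining one past the filter by 0.37. Without normoxia B the adjusted p of TFE3 was 0.0523. TFEB had a signal of 246 and 209.5 in hypoxia and 199.9 and 131 in normoxia. The hypoxia arrays were the higher ones by this probe set, yet the difference was not called (0.43 ± 0.49, adjusted p = 0.514). Both hypoxia arrays lay under the highest Bacillus control of their array. A further probe set of TFEB, of like signal, overlapped between groups, with 231 and 174 in hypoxia and 163 and 217 in normoxia (0.083).

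The proteases divided. Of 8 tested, CTSB was called higher, CTSC, CTSD, CTSL and TPP1 lower, and 3 were not called, with a median of -0.77. Over all genes tested, 15.3% were called higher and 22.8% lower. Under rescaling to the hybridization controls the difference of CTSB was -0.37. CTSB, a cysteine protease with endo- and exopeptidase activity, had a signal of 8533 and 7787 in hypoxia and 3490.3 and 4246 in normoxia. Its hypoxia arrays were well clear of the normoxia arrays, at 1.08 ± 0.17 (adjusted p = 0.00145). Its 5 probe sets did not act alike: the most similar to it in signal differed by 1.30, while the other 3 differed by -0.12, -0.11 and 0.0078.

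CTSC, the dipeptidyl peptidase that activates serine proteases of immune granules, had a signal of 311 and 646 in hypoxia, against 1628 and 1549 in normoxia. The hypoxia arrays were both low but unlike each other, and the difference was -1.77 ± 0.32 (adjusted p = 0.00283). Its other probe sets past the filter differed by -0.92 and -1.21. CTSD, the main aspartic protease of lysosomes, had 198 and 231 in hypoxia and 490.4 and 555 in normoxia. Each array of one group lay far from each array of the other, with a difference of -1.20 ± 0.34 (adjusted p = 0.0226), and hypoxia A lay under the highest Bacillus control of that array. With normoxia A left out the adjusted p was 0.144, and with normoxia B left out 0.211.

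CTSL, a cysteine endopeptidase, had a signal of 1104 and 1096 in hypoxia and 2041 and 2102 in normoxia. Replicates lay within a few percent of each other in both groups, and the difference was -0.90 ± 0.18 (adjusted p = 0.00480). TPP1, which removes tripeptides from the ends of proteins and is mutated in a childhood neuronal ceroid lipofuscinosis, had 1569.8 and 1225 in hypoxia and 2637 and 2491 in normoxia. Again the groups did not overlap (-0.87 ± 0.19, adjusted p = 0.00718), and its other probe sets differed by -0.77 and -0.74. Both calls were lost with either normoxia array left out, where calls over all genes fell too. With any 1 array left out the difference ran from -0.92 to -0.88 for CTSL and from -1.05 to -0.70 for TPP1.

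The 3 proteases that were not called covered both signs. CTSA, the carboxypeptidase that also protects sialidase and beta-galactosidase, read 1733 and 1029.6 in hypoxia and 2108 and 2172 in normoxia (-0.67 ± 0.25, adjusted p = 0.0627). The spread lay in the hypoxia arrays, both under normoxia. CTSH, an aminopeptidase, read 888 and 693 in hypoxia and 558 and 457 in normoxia (0.61 ± 0.27, adjusted p = 0.102). CTSZ, a carboxypeptidase, read 446 and 513 in hypoxia and 456 and 521 in normoxia, so its groups overlapped.

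Of 6 glycosidases 1 was called lower and none higher, beside 22.8% and 15.3% of all genes, with a median of -0.18. The one call was HEXA, the alpha subunit of beta-hexosaminidase, which degrades GM2 ganglioside and is mutated in Tay-Sachs disease. It had a signal of 295 and 401 in hypoxia and 1055 and 923 in normoxia. The groups lay well apart (-1.46 ± 0.28, adjusted p = 0.00333), hypoxia A fell under the highest Bacillus control of its array, and with normoxia A left out the adjusted p was 0.0573. NEU1, the lysosomal sialidase, had 4758 and 1369.8 in hypoxia and 1223 and 1069 in normoxia. Hypoxia A alone stood far out, with a difference of 1.94 within letter A and 0.35 within letter B, and the gene was not called (adjusted p = 0.0799). GAA, which breaks down glycogen, had 849 and 991 in hypoxia and 1315 and 1302 in normoxia (-0.50 ± 0.21, adjusted p = 0.0862). GLA, alpha-galactosidase A, differed by -0.27 (adjusted p = 0.319). GUSB, beta-glucuronidase, and MAN2B1, an alpha-mannosidase, had overlapping groups, at 0.14 (adjusted p = 0.601) and -0.078 (adjusted p = 0.840).

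Of the lipid and sterol genes 5 of 5 were called, 3 higher and 2 lower, beside 15.3% of all genes called higher and 22.8% lower, with a median of 0.79; under rescaling to the hybridization controls PSAP and NPC2 had differences of -0.63 and -0.67. NPC1, the membrane protein that moves cholesterol out of the lysosome and is mutated in Niemann-Pick disease type C, had a signal of 8644 and 6739 in hypoxia, against 1293 and 1352 in normoxia. The hypoxia arrays averaged 7692 ± 1347 and the normoxia arrays 1322 ± 41.9 (SD, n = 2 each), and every hypoxia value lay far above every normoxia value. The difference was 2.51 ± 0.18 (adjusted p = 5.50e-05). Its other probe sets past the filter differed by 4.58 and 0.95 in the same direction. The first read 48.3 and 10.8 in normoxia, so it passed the filter only through hypoxia and its size depends on the pseudocount. The second was not called (adjusted p = 0.141 in the fit of all probe sets). With hybridization control scaling NPC1 differed by 1.06 (adjusted p = 0.179).

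NPC2, the soluble partner that hands cholesterol to NPC1, had a signal of 12490.2 and 14473 in hypoxia and 7140.5 and 8491 in normoxia. Hypoxia lay above normoxia on all arrays (0.79 ± 0.17, adjusted p = 0.00736). PSAP, the precursor of the saposins that present sphingolipids to their hydrolases, had 18127 and 15153 in hypoxia and 8802 and 9868 in normoxia. The groups did not overlap (0.83 ± 0.17, adjusted p = 0.00564), and its other probe set differed by 0.58. The 2 lipid hydrolases went the other way. ASAH1, acid ceramidase, had 4338 and 4406 in hypoxia, against 7809.7 and 7795 in normoxia. Replicates were close in both groups (-0.83 ± 0.15, adjusted p = 0.00308), and its 3 other probe sets past the filter differed by -0.85 to -1.56. LIPA, the acid lipase that frees cholesterol from its esters, had 3434 and 3862 in hypoxia and 5755 and 6077 in normoxia. Both hypoxia arrays were lower (-0.70 ± 0.16, adjusted p = 0.00909). The call was lost with either normoxia array left out, where calls over all genes fell too. With any 1 array left out the difference ran from -0.78 to -0.61. Averaging LIPA with a second, dim probe set gave 0.054.

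The 2 main membrane glycoproteins were called in opposite directions. LAMP1, one of the most abundant proteins of the lysosomal membrane, had a signal of 4193 and 5307 in hypoxia, against 11169 and 13509 in normoxia. The hypoxia arrays averaged 4749.7 ± 788 and the normoxia arrays 12339 ± 1655 (SD, n = 2 each), with no overlap, for a difference of -1.38 ± 0.19 (adjusted p = 6.66e-04). All 4 of its probe sets differed in the same direction, the others by -1.54, -1.59 and -1.97. The call held in each of 16 alternative settings, as did those of CTSC and ATP6V0E2. These settings are not independent of each other. ATP6V0E2 has 1 probe set, so those that change the choice of probe set could not alter its difference.

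LAMP2, whose isoforms serve chaperone-mediated autophagy and fusion with autophagosomes, had a signal of 3364 and 3005 in hypoxia and 2218 and 2055 in normoxia. The hypoxia arrays were the higher ones (0.57 ± 0.17, adjusted p = 0.0276), but without normoxia A the adjusted p was 0.196 and without normoxia B 0.281. Of its other probe sets 2 differed by 0.46 and the remaining one by -0.46. Rescaled to the hybridization controls, LAMP2 differed by -0.88. The other 3 membrane genes were not called. CD63, a tetraspanin of late endosomes and exosomes, read 13083 and 11602 in hypoxia and 9057 and 9953 in normoxia (0.37 ± 0.17, adjusted p = 0.105). SCARB2, which carries beta-glucocerebrosidase to the lysosome, differed by -0.15 (adjusted p = 0.493), and its other probe sets by 0.22 and -0.40. MCOLN1, the calcium channel TRPML1, had 320.5 and 293 in hypoxia and 488 and 358 in normoxia. Its hypoxia arrays lay below, but close to, normoxia B (-0.42 ± 0.34, adjusted p = 0.361).

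**Figure D2:**
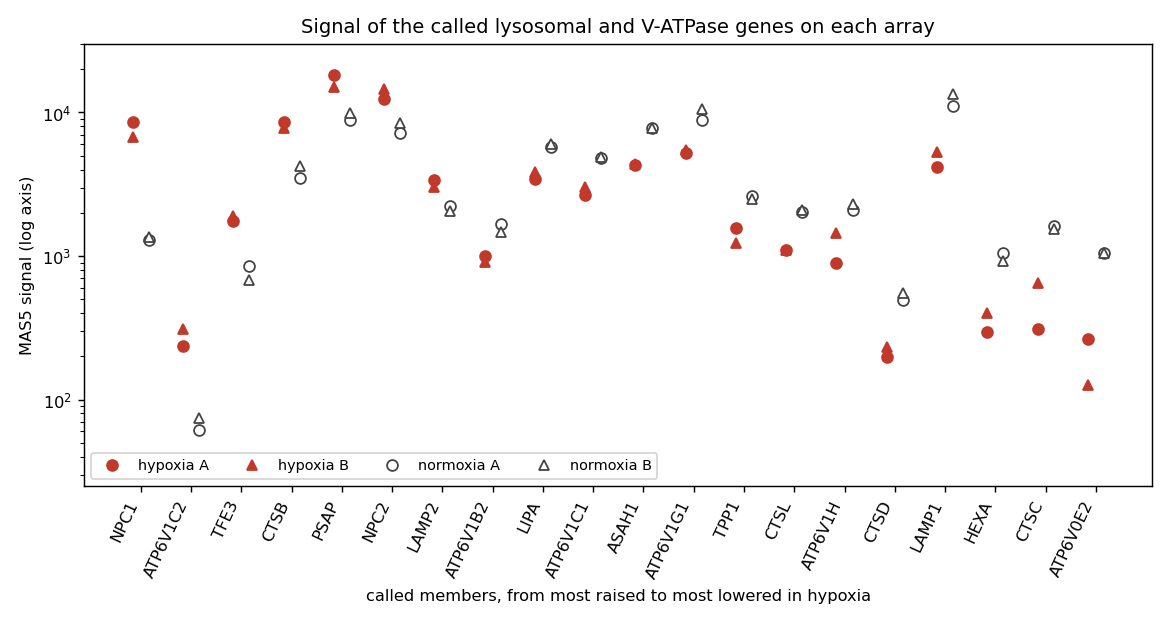
MAS5 signal on each array (y axis, log scale) of the 20 called members (x axis, from the most positive to the most negative difference); filled red marks are hypoxia, open grey marks normoxia, circles exp A and triangles exp B. Hypoxia and normoxia arrays do not overlap for any of the 20, beside 72.0% of all tested genes. The 20 were picked because they were called, so this lack of overlap is no further support. They run from NPC1 at 8644 and 6739 against 1293 and 1352 to ATP6V0E2 at 264 and 127 against 1049 and 1057.

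Of the 19 tested V-ATPase subunits among the members, 1 was called higher, 5 were called lower and 13 were not called, a share of 31.6% beside 38.0% of all genes. The median was -0.35, with -0.61 within letter A and -0.080 within letter B. Over all genes tested these medians were -0.018 and -0.052. The remaining 26 members had 6 higher, 8 lower and 12 not called, with a median of -0.11 (-0.16 within letter A and -0.065 within letter B). The difference between these groups of members was not tested.

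In the membrane sector V0, 1 of 8 tested genes was called, beside 38.0% of all genes. ATP6V0E2, a small e subunit, had a signal of 264 and 127 in hypoxia and 1049 and 1057 in normoxia. The normoxia arrays were nearly alike and both hypoxia arrays lay under the highest Bacillus control of their array (-2.37 ± 0.36, adjusted p = 0.00120). Its paralog ATP6V0E1 had 6965 and 7689.9 in hypoxia and 6088 and 6298 in normoxia and was not called (0.24 ± 0.16, adjusted p = 0.264). The hypoxia arrays were the higher ones there, and a further probe set of ATP6V0E1 differed by 1.27 (adjusted p = 0.00773 in the fit of all probe sets). Its remaining probe sets past the filter differed by 0.095 to 0.73 and were not called in that fit.

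The a subunits among the members, which anchor the stator and route the pump to its compartment, lay lower in hypoxia without passing the test by the probe set used. ATP6V0A1 had 652 and 552 in hypoxia and 1008 and 819.9 in normoxia (-0.58 ± 0.25, adjusted p = 0.0935). ATP6V0A2 had 150.0 and 55.3 in hypoxia, under the highest Bacillus control, and 285 on both normoxia arrays (-1.40 ± 0.58, adjusted p = 0.0886). Its other probe sets past the filter differed by -2.10 (adjusted p = 0.0686 in the fit of all probe sets) and -2.31 (0.0176). The first read 35.8 and 23.7 in hypoxia and 229 and 181 in normoxia. The second read 38.6 and 56.9 in hypoxia and 283 and 378 in normoxia. Both passed the filter only through normoxia, so they add no support. The proton-carrying ring subunit genes were not called: ATP6V0C read 6618 and 6868 in hypoxia and 5396 and 6037 in normoxia (0.24, adjusted p = 0.269), and ATP6V0B overlapped between groups (0.031, adjusted p = 0.913). The d subunit gene ATP6V0D1 also overlapped, with 2360.2 and 3427 in hypoxia and 3627 and 3385 in normoxia. Its paralog ATP6V0D2, known from osteoclasts, read 188 and 173 in hypoxia and 43.4 and 63.4 in normoxia, all under the highest Bacillus control of their array (1.42 ± 0.72, adjusted p = 0.149).

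In the catalytic sector V1, 1 of 11 tested genes was called higher and 4 were called lower, beside 15.3% and 22.8% of all genes. The median of the sector was -0.41, with -0.72 within letter A and -0.12 within letter B. The lower ones were all widely expressed subunits. ATP6V1G1, of the peripheral stalk, had a signal of 5244 and 5469 in hypoxia, against 8814 and 10557 in normoxia. The groups lay clearly apart (-0.85 ± 0.17, adjusted p = 0.00413), but the call was lost with normoxia B left out. Its other probe set differed by -1.73 and was not called (adjusted p = 0.0647 in the fit of all probe sets). That probe set read 86.8 and 39.9 in hypoxia, so it passed the filter only through normoxia. ATP6V1C1, the subunit that joins the 2 sectors and leaves when the pump is taken apart, had 2662 and 3016 in hypoxia and 4841 and 4875 in normoxia. All 4 of its probe sets lay lower in hypoxia, the chosen one by -0.77 ± 0.16 (adjusted p = 0.00579) and the others by -0.84, -1.15 and -1.80.

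ATP6V1H, a regulatory subunit, had 899.6 and 1446 in hypoxia and 2108 and 2319 in normoxia (-0.94 ± 0.24, adjusted p = 0.0147). ATP6V1B2, the nucleotide-binding B subunit of most tissues, had 1008 and 912 in hypoxia and 1670.4 and 1460.2 in normoxia (-0.69 ± 0.20, adjusted p = 0.0246). Neither gene's groups overlapped. The calls of ATP6V1C1, ATP6V1H and ATP6V1B2 were lost with either normoxia array left out, where calls over all genes fell too. With any 1 array left out the difference ran from -0.86 to -0.68 for ATP6V1C1. It ran from -1.28 to -0.60 for ATP6V1H and from -0.79 to -0.59 for ATP6V1B2. ATP6V1C2, a paralog of ATP6V1C1 known from epithelia such as kidney and lung, was the only V1 gene called higher, with a signal of 236 and 311 in hypoxia and 61.2 and 74.1 in normoxia. Both hypoxia arrays lay above both normoxia arrays (1.69 ± 0.58, adjusted p = 0.0477), but signals on 1 array of each group were under the highest Bacillus control, and without hypoxia B, normoxia A or normoxia B the adjusted p was 0.105, 0.188 or 0.134. The gene passed the filter only through hypoxia, with a normoxia mean of 67.6, so its call supports no statement about the C subunits. It was also lost with quantile normalization (adjusted p = 0.0700), with no filter (0.110) and with hybridization control scaling (0.625).

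The catalytic A subunit gene, ATP6V1A, was not called, with 4892 and 6586 in hypoxia and 4413 and 4590.2 in normoxia (0.33 ± 0.19, adjusted p = 0.188). ATP6V1E1, of the stalk, had 2481 and 2424 in hypoxia and 3188 and 3335 in normoxia. Its groups did not overlap, and it missed the threshold (-0.41 ± 0.16, adjusted p = 0.0791). ATP6V1D, of the central shaft, differed by -0.34 (adjusted p = 0.161), and its other probe sets past the filter by -0.59 and 0.56. The tissue-restricted paralogs were not called: ATP6V1E2, known from testis, read 79.2 and 349 in hypoxia and 352 and 369.9 in normoxia (-0.97, adjusted p = 0.227), ATP6V1G2, known from neurons, differed by 0.44 (adjusted p = 0.649), and ATP6V1G3, known from kidney, by -0.35 (adjusted p = 0.812). Below the filter, and so not tested, were 2 members. ATP6V1B1, the kidney B subunit, read 11.8 and 190.1 in hypoxia and 10.6 and 6.58 in normoxia, and ATP6V0E2-AS1 read 11.9 and 18.4 in hypoxia and 49.7 and 18.7 in normoxia.

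How far a gene's value rests on 1 probe set could be seen where several bind it. Of the 112 probe sets of the members, 87 passed the filter, and 20 tested members had more than 1. In 4 of these 20, CTSB, LAMP2, SCARB2 and ATP6V1D, at least 1 further probe set had the opposite sign. Among called members with several, 9 of 11 had a single sign throughout, LAMP1, NPC1, ATP6V1C1, ASAH1 and CTSC among them. Averaging all probe sets of a gene, dim ones included, ended the calls of HEXA (-0.11, adjusted p = 0.859), ATP6V1H (-0.48, 0.485), LAMP2 (0.26, 0.287), CTSB (0.43, 0.148), TPP1 (-0.56, 0.115), ASAH1 (-0.65, 0.0779) and TFE3 (0.96, 0.0559), beside that of LIPA. ATP6V1C2 fell under the filter in that setting, and calls gained there are not listed. Probe sets of a gene can bind different transcript ends, and no probe position was used here.

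**Figure D3:**
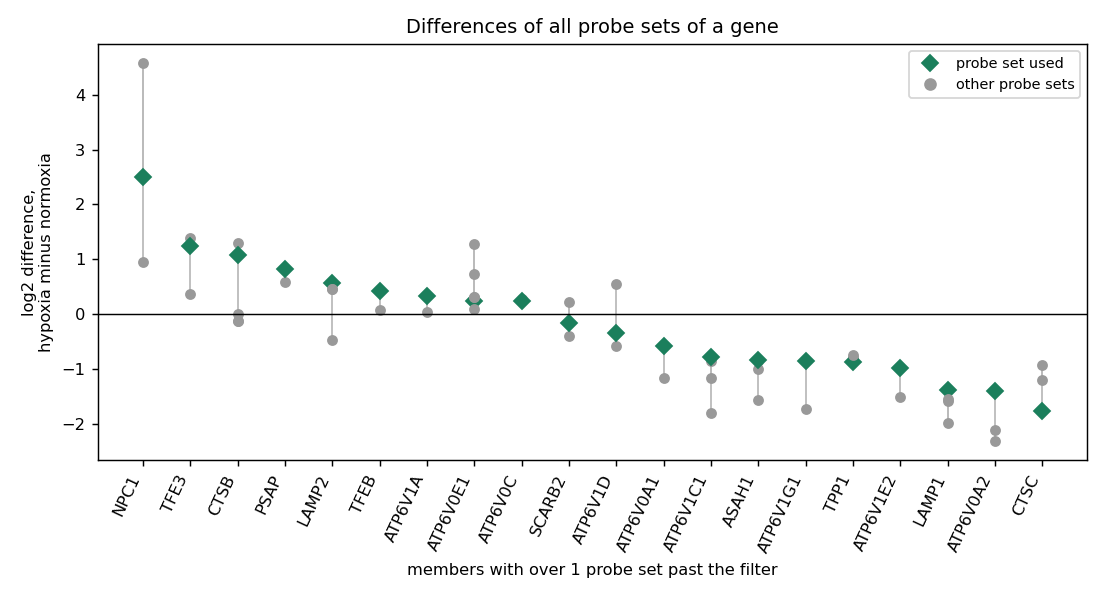
Log2 difference between hypoxia and normoxia (y axis) of every probe set past the filter for the 20 members with more than 1 (x axis); green diamonds are the probe set used for the gene, grey circles the others. The 4 probe sets of LAMP1 lie between -1.38 and -1.97 and the 3 of NPC1 between 0.95 and 4.58, while those of CTSB, LAMP2, SCARB2 and ATP6V1D lie on both sides of 0. The NPC1 probe set at 4.58 passed the filter only through hypoxia.

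Promoter windows were given for 35 of the 47 members, with none for members on chromosome 8. TCACGTGA, searched on both strands and identical on each, was found in 6 of 35 member genes (17.1%), against 1.18% of all 27305 genes with a window and 2.19% of the genes tested here. The 6 were LAMP1, ATP6V1G1, ATP6V0D1, GAA, MCOLN1 and CTSA, of which LAMP1 and ATP6V1G1 were called, both lower. Of members with a window, the core stood in 0 of 4 called higher, 2 of 8 called lower and 4 of the other 23. The shorter E-box CACGTG, which the core contains, was in 11 of 35 members (31.4%) against 8.77% of all genes and 12.5% of those tested. Of the hypoxia-inducible factor cores, ACGTG, which every CACGTG contains, was in 17 of 35 (48.6%) against 24.9% of all genes and 31.8% of those tested. GCGTG was in 21 of 35 (60.0%) against 40.6% of all genes and 57.5% of those tested, near the share among tested genes; none of the 4 members called higher with a window held either. A match describes these letters and is not a measured binding site.

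Genes that work with the members were read from related lists (93 tested), of which 12 were called higher and 30 lower, a share of 45.2% beside 38.0% of all genes. Among 9 tested genes of a list of the mannose 6-phosphate and sortilin route, which also holds the sulfatase activator SUMF1, 5 were called lower and none higher, with a median of -0.78. The smallest of these 5 differences, -0.78, belonged to a gene with a further probe set past the filter of opposite sign, at 1.77. Over all genes tested, 22.8% were called lower and 15.3% higher. SUMF1, which activates lysosomal sulfatases in the endoplasmic reticulum, had a signal of 309 and 279.7 in hypoxia, against 2536 and 2312 in normoxia (-2.94 ± 0.22, adjusted p = 6.08e-05). IGF2R, the larger mannose 6-phosphate receptor, had 255 and 386 in hypoxia and 1703 and 1390.0 in normoxia (-2.21 ± 0.28, adjusted p = 4.73e-04). Both showed wide gaps between groups. GNPTG, a subunit of the enzyme that starts the mannose 6-phosphate tag, differed by -1.80 ± 0.25 (adjusted p = 7.32e-04), and NAGPA, which uncovers that tag, by -1.71 ± 0.33 (adjusted p = 0.00392; 0.0738 without normoxia B).

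Of 10 tested genes on a V-ATPase accessory and assembly list, 1 was called higher and 2 lower, beside 15.3% and 22.8% of all genes. That list also holds TCIRG1, an a subunit gene that the symbol rule left out of the members. The list median was -0.30. VMA21, a chaperone that assembles the V0 sector in the endoplasmic reticulum, had a signal of 427 and 250.0 in hypoxia, against 4214 and 4246 in normoxia. Normoxia replicates were nearly equal and far above both hypoxia arrays, for a difference of -3.60 ± 0.26 (adjusted p = 5.35e-05) that was larger in size than that of any member by its chosen probe set. ROGDI, related to a subunit of the yeast complex that rejoins the sectors, had 91.6 and 85.0 in hypoxia, under the highest Bacillus control, and 610.1 and 722 in normoxia (-2.62 ± 0.40, adjusted p = 0.00118). OXR1, of a family whose proteins bind the V-ATPase, differed by 0.51 (adjusted p = 0.0340; 0.305 without normoxia A and 0.242 without normoxia B), and by -0.93 with hybridization control scaling.

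Of 25 further hydrolases and activators, 4 were called higher and 8 lower (median -0.36), beside 15.3% and 22.8% of all genes. CTSK, a collagen-degrading cysteine protease, had a signal of 518 and 1289 in hypoxia and 134 and 88.6 in normoxia (2.66 ± 0.48, adjusted p = 0.00263). PPT1, which strips palmitate from proteins, had 829 and 1536 in hypoxia and 4006 and 4054 in normoxia (-1.81 ± 0.27, adjusted p = 0.00100). Both genes' hypoxia arrays were spread more than their normoxia arrays were, without reaching the other group. In CTSK, normoxia B lay under the highest Bacillus control of its array, and the difference ran from 2.02 without hypoxia B to 3.30 without hypoxia A. ACP2, an acid phosphatase, differed by -1.50 ± 0.40 (adjusted p = 0.0164; 0.171 without normoxia A and 0.0914 without normoxia B), with both hypoxia arrays under the highest Bacillus control. NAGLU, of heparan sulfate breakdown, had 11.2 and 10.7 in hypoxia, far under that control, and 219 and 201 in normoxia. It passed the filter only through normoxia, and the size of its fitted difference depends on the pseudocount (-2.75 as fitted, -1.48 with a pseudocount of 100). Its adjusted p of 0.0427 became 0.509 with normoxia A left out and 0.382 with normoxia B left out.

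Of 23 further membrane proteins, 3 were called higher and 6 lower (median -0.064), beside 15.3% and 22.8% of all genes. CTNS, the cystine exporter, differed by -2.52 ± 0.58 (adjusted p = 0.00837), CLN3, mutated in juvenile neuronal ceroid lipofuscinosis, by -2.02 ± 0.62 (0.0298), the cation channel gene TPCN1 by -1.54 ± 0.32 (0.00519, with 1 of its further probe sets of opposite sign) and CLCN7, a chloride-proton exchanger, by -1.31 ± 0.29 (0.00744). CLN3 varied most between arrays, with 60.6 and 316 in hypoxia and 858 and 507 in normoxia, and leaving out hypoxia A gave a difference of -1.01, leaving out hypoxia B one of -3.02. TPCN1 kept its call without any 1 array. Without normoxia A the adjusted p was 0.0914 for CTNS, 0.167 for CLN3 and 0.0738 for CLCN7, and without normoxia B it was 0.156 for CTNS and 0.0792 for CLCN7.

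The mTORC1, Rag and Ragulator list, whose products regulate mTORC1 at the lysosome surface, had 3 of 20 called higher and 8 lower (median -0.19). The shares over all genes were 15.3% and 22.8%. RRAGD, a Rag GTPase, had a signal of 4245 and 3283 in hypoxia, against 1163 and 1053 in normoxia (1.73 ± 0.20, adjusted p = 2.89e-04). Its groups lay far apart, although with hybridization control scaling it differed by 0.29 (adjusted p = 0.735). LAMTOR2, of the Ragulator scaffold, had 413 and 242 in hypoxia and 1186 and 1391 in normoxia (-1.94 ± 0.30, adjusted p = 0.00129). RRAGB differed by -1.53 ± 0.45 (adjusted p = 0.0246; 0.176 without normoxia A and 0.229 without normoxia B) and TSC2, an inhibitor of the pathway, by -1.50 ± 0.30 (adjusted p = 0.00428; 0.0924 without normoxia A). A last list held 6 tested genes of the MiT family or linked to it. WIPI1, of autophagosome formation, was called higher at 0.94 ± 0.20 (adjusted p = 0.00594), but differed by -0.49 with hybridization control scaling. Its call was also lost with either normoxia array left out. With any 1 array left out it differed by 0.81 to 1.07. GPNMB, a membrane glycoprotein, had 46.9 and 7.69 in hypoxia and 216 and 236 in normoxia. It was called lower at an adjusted p of 0.0497 but passed the filter only through normoxia, and the call was lost in 8 of 14 alternative settings. NAGPA, CTNS, RRAGB and GPNMB lay under the highest Bacillus control on both hypoxia arrays, and CLN3 and IGF2R on 1 of them. CTNS and ROGDI also passed the filter only through normoxia.

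**Figure D4:**
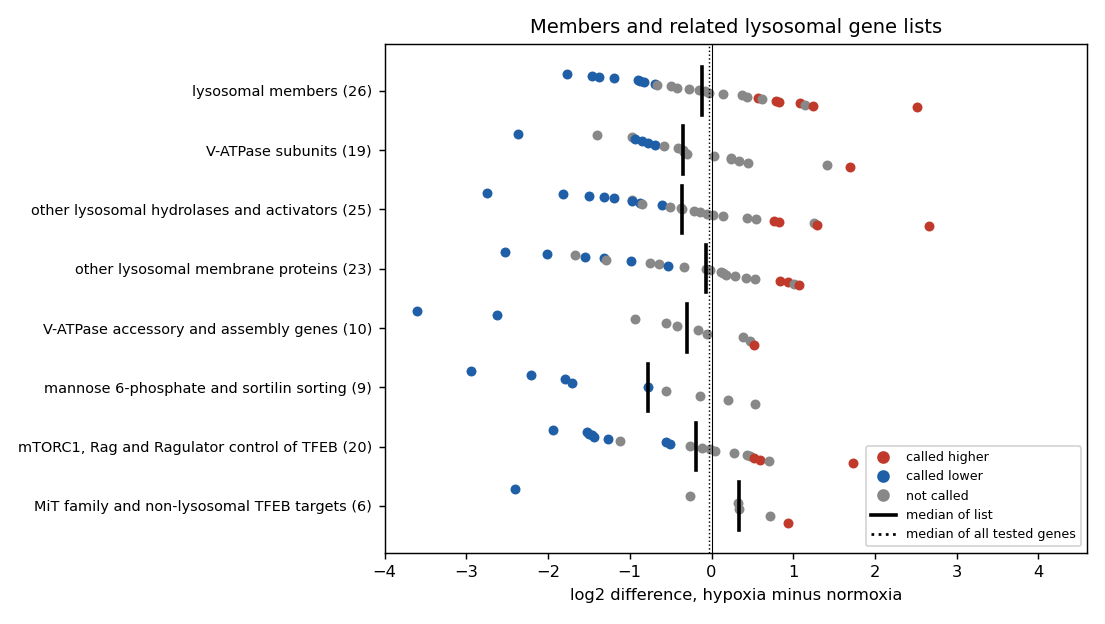
Log2 difference between hypoxia and normoxia (x axis) of each tested gene (points) in the members other than the V-ATPase, the V-ATPase subunits and 6 related lists (rows, number tested in brackets); red is called higher, blue called lower, grey not called, black bars are list medians and the dotted line is the median of all tested genes. By the probe set used, the mannose 6-phosphate route has 5 of 9 genes called lower and none higher, beside 22.8% and 15.3% of all genes. VMA21 at -3.60 is the lowest point. With hybridization control scaling WIPI1, OXR1 and several members plotted as higher turn negative.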

How the data were processed

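Gene expression was measured on 4 arrays of HCT116 cells, 2 at 1% oxygen and 2 at 21%, with cRNA made from 6 µg total RNA (per the labels). The authors deposited linear MAS5 intensities, 1 for each probe set, per the submitters' processing notes, which give no version. The 2% trimmed mean was 500.1 on all 4 arrays, so a shift shared by most genes cannot be seen. Arrays shared at most 1 identical value.

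Of 54675 probe sets, 41091 were annotated to 1 gene and used, 1801 to several and 11721 to none. No further normalization was applied. Signals were taken as log2(signal + 23.7), the 25th percentile of all values, and tested by oxygen group with limma 3.58.1 in R 4.3.3 (two-sided; lmFit and eBayes with trend), adjusting p over 12636 genes by Benjamini-Hochberg. The fit was tested on simulated data. Figures were drawn with matplotlib 3.10.9 in Python 3.11.15.

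The members and lists were chosen with earlier results of these data known. Array values were to be given for TFEB, TFE3, LAMP1, LAMP2, CTSD, MCOLN1 and the 20 called members, and up to 4 called genes of each related list were to be named by size of change; values of other members were added. Alternatives changed the scaling, filter, pseudocount, choice of probe set, variance model, threshold, replicate block and array left out.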

Additional observations from a re-analysis of the deposited data

How the results depend on the processing

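With 2 arrays per group the number of arrays limits the precision, and 6 members that were not called had an adjusted p under 0.1. Hypoxia replicates spread more than normoxia replicates (median SD 0.27 against 0.15, log2 scale). Leaving out a normoxia array leaves 1, assumed to vary like the others, so spread is then read from the hypoxia pair. Calls fell over all genes there, not among members alone. Leaving out each array in turn gave 4 to 8 members called higher, 5 to 19 lower, a member median of -0.36 to -0.046 and 2575 to 6257 genes called in all. The member median without hypoxia A was -0.046, beside -0.0050 over all genes, and the lower counts came without normoxia A (5 higher, 5 lower) and without normoxia B (4 higher, 5 lower). With hybridization control scaling 0 members were higher and 24 lower, with a median of -1.72 against -1.49 over all genes (52 genes higher, 5791 lower in all), and differences were -0.19 for TFE3, -0.37 for CTSB, -0.63 for PSAP, -0.67 for NPC2, -0.88 for LAMP2, -0.93 for OXR1 and -0.49 for WIPI1. MCOLN1 was called there at -1.79. The cause was not tested. Under 75th percentile scaling the all-gene median was 0.12 and the member median -0.14, with 8 members higher and 12 lower (all genes, 2390 higher and 2409 lower). Averaging all probe sets per gene left 4 members higher and 9 lower, LIPA at 0.054 and HEXA at -0.11; dim probe sets enter that mean by construction. Without the intensity trend 7 members were lower, 5 higher, 9 of the 20 calls were lost (adjusted p 0.0567 to 0.112) and 3141 genes were called in all; at a threshold of 0.01, 2994. Deviations of hypoxia A and normoxia A from their group means correlated at 0.0875 over the genes tested. Letter B mirrors letter A by construction and adds no further pair. The letters were not taken to pair the arrays. With a replicate block for them, 8 members were higher and 14 lower: the 20 calls stayed, and NEU1 (adjusted p = 7.02e-07) and CTSA (0.00585) gained one. On 4 arrays that fit leans on a variance shared over genes, so its p-values say little about a single gene's spread. NEU1 differed by 1.94 within letter A and 0.35 within letter B, and CTSA by -0.28 and -1.06. Other pseudocounts, filters and quantile normalization gave 6 or 7 members higher and 12 or 13 lower.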
